A study of Arabidopsis thaliana with 18 samples.

Results

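The genes described here are the 200 probe sets whose signal was most increased in wild-type Arabidopsis thaliana seedlings between day 1 and day 3 of growth. They were chosen from 13513 probe sets with a single gene, by the mean of log2(signal + 22) on the wild-type day 3 arrays minus that on the wild-type day 1 arrays. Before ranking, 79 probe sets were left out: TAPX, PSAN, RCA, the other named photosystem and light-harvesting genes and the genes of the plastid genome. Of these, 9 would otherwise have ranked above the last member. The 200 probe sets stand for 199 loci, since AT2G30600 has a pair of them, and all 200 passed the filter on dim probe sets. The wild-type values therefore define the set and carry no test, whereas the vte1 and vte2 arrays had no part in the choice.

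Whole seedlings of vte2-1, vte1-1 and wild-type Columbia-0 (vte2, vte1 and WT below) were compared, both mutants being in the Columbia-0 background. Every group had been kept for 5 days at 6 °C, then grown at 22 °C under a photoperiod of 12 h on half-strength Murashige and Skoog medium, and was harvested after 3 days or after 1 day at 22 °C. Each of the 6 groups had 3 arrays from pools of about 100 mg of seedlings, called biological replicates in the labels, so that 18 Affymetrix arrays were used and their number limits the precision. The stated purpose was to compare the tocopherol-deficient mutants with each other and with their background. VTE2, homogentisate phytyltransferase, starts the tocopherol branch, and VTE1, tocopherol cyclase, acts later, so that vte1 plants lack tocopherols but hold the quinol intermediate that vte2 plants do not make. Each genotype is 1 allele.

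During establishment a seedling passes from living on seed reserves to living on its own photosynthesis. Plastids of the cotyledons turn into chloroplasts, the Calvin cycle and photorespiration are installed, and sugar transport, cell wall and epidermal genes are switched on as organs expand. In whole seedlings, more cells of a type and more RNA per cell cannot be told apart. Of 8 lists of cell type markers, the probe table named 2 of 3 root hair genes, 3 of 6 stomatal genes, 1 of 3 shoot meristem genes and no gene of the other 5 lists, so the make-up of the samples was hardly covered. The summed root hair signal (EXPA7 and EXPA18) spanned 653 to 1103 in vte2, 1171 to 1355 in vte1 and 574 to 1688 in WT at day 3, against 436 to 4760 in vte2, 61.6 to 324 in vte1 and 674 to 1060 in WT at day 1. The summed stomatal signal (SPCH, MUTE and FMA) was 249 to 315, 238 to 470 and 253 to 379 at day 3 in vte2, vte1 and WT, against 258 to 406, 133 to 358 and 224 to 392 at day 1. CLV3, the shoot meristem gene, stayed between 1.3 and 76.0 over all groups. The part of cell make-up in the results was not tested.

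The arrays had closely similar trimmed means, while their median signals spanned 122 to 181 and were higher at day 3 than at day 1. The log2 ratio of the 3′ to the 5′ GAPDH control, a sign of RNA integrity, was lowest in replicate 3 of every group. It was −0.62 to 0.43 in replicate 3, 0.24 to 1.01 in replicate 2 and 0.57 to 1.13 in replicate 1. A higher ratio means a weaker 5′ signal, so by this measure replicate 3 had the least 3′ bias in each group. In vte2 replicate 3 also stood apart for the 200 probe sets themselves. Their median signal in all genotypes at day 1 was 64.2, 53.6 and 102 in replicates 1, 2 and 3 of vte2, 42.0, 41.2 and 55.4 in vte1 and 51.2, 45.1 and 55.4 in WT. At day 3 it was 1143, 1222 and 966 in vte2, 1092, 1084 and 1106 in vte1 and 1196, 1328 and 1280 in WT. The vte2 array of replicate 3 thus had the highest level of the day 1 arrays and the lowest of the day 3 arrays, and the differences between the mutants are given below with and without replicate 3. What set replicate 3 of vte2 apart was not tested.

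**Figure D1:**
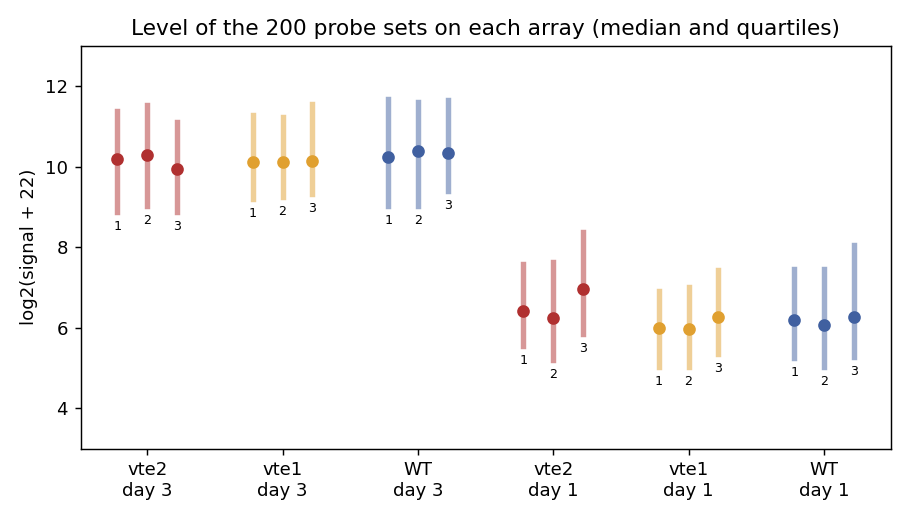
Level of the 200 probe sets on each of the 18 arrays, as log2(signal + 22), with vte2, vte1 and WT at day 3 followed by the same genotypes at day 1. Points are medians over the 200 probe sets, bars run between the quartiles and digits are replicate numbers. All day 3 medians lie between 9.95 and 10.40 and all day 1 medians between 5.98 and 6.95, where vte2 replicate 3 is highest.

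The genes were mostly dim at day 1 and bright at day 3. The mean signal of a probe set at day 3 ran from 142 over a median of 1150 to 15764 in vte2, from 112 over 1132 to 23268 in vte1 and from 277 over 1284 to 29737 in WT. At day 1 the median was 78.5 in vte2, 42.0 in vte1 and 47.9 in WT, and 40, 56 and 54 of the probe sets had mean signals under 22, the amount added before taking logs. Changes of such dim genes are understated on the log2(signal + 22) scale. Together the 200 probe sets made up 2.43 to 2.94% of the total signal in vte2, 2.67 to 3.01% in vte1 and 3.18 to 3.28% in WT at day 3, against 0.205 to 0.360%, 0.110 to 0.179% and 0.177 to 0.240% at day 1. At day 1 all vte2 arrays lay above all vte1 arrays in this share and WT overlapped with both, and at day 3 WT lay above both mutants, which overlapped each other. Because the members were chosen for a large WT increase, the place of WT in this share is a description only.

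The WT increase ran from 3.05 over a median of 3.65 to 7.55 on the log2 scale, against a median of 0.14 for all probe sets with 1 gene. The last probe sets inside were AT1G69160, AT2G15020 and AT2G29360, all at 3.05 after rounding, and the next outside were AT2G41120 at 3.04, AT5G37360 at 3.03 and SWEET16 at 3.03, so the border is not a gap. CCL (CCR-like) headed the order at 7.55. Its signal was 10665, 15269 and 4811 in vte2, 1782, 1922 and 5293 in vte1 and 11862, 8727 and 4309 in WT at day 3, against 38.5, 20.5 and 147, 4.9, 27.8 and 21.4, and 16, 1.2 and 55.2 at day 1. The vte2 and WT arrays of replicate 3 were the lowest of their groups at day 3 and the vte1 array of replicate 3 the highest. AT1G22690 (7.35), AT3G05730 (7.06), AT2G29290 (6.50), AT3G53980 (6.39), AT1G33811 (6.27), AT2G37130 (6.06), AT1G70820 (5.88), AT4G38080 (5.86) and AT1G64370 (5.82) followed, none with a name beyond its locus in the tables used. Among the 200 probe sets 35 carried such a name and 165 did not.

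Nearly the whole set also rose in both mutants. In vte2 the day 3 arrays were called higher than the day 1 arrays for 199 of the 200 probe sets (limma, adjusted p under 0.05), where 21.7% of all 15922 probe sets tested were called higher, and in vte1 likewise for 199, where 30% of all were. The median change was 3.16 in vte2, with a range of 1.44 to 6.93, and 3.90 in vte1, with a range of 0.60 to 7.66, against medians of 0.06 and 0.14 for all probe sets tested. The 3 day 3 arrays lay above the 3 day 1 arrays for all 200 probe sets in vte2 and in vte1, where 26.9% and 32.9% of all tested were so separated. The exception in vte2 was AT4G28080, with a signal of 4527, 3358 and 1801 at day 3 against 762, 564 and 1684 at day 1, and a change of 1.72 ± 0.68 (SE; limma adjusted p = 0.0506). Its replicate 3 arrays nearly met. The exception in vte1 was AT1G56220, described below.

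The order of the increases differed more. Ranked by each mutant's own increase, 138 of the 200 (69.0%) were among the first 200 in vte2 and 128 (64.0%) in vte1, while 193 and 176 were among the first 500, and 200 and 191 among the first 1000. The increases in vte2 and vte1 had a Pearson correlation of 0.473 and a Spearman correlation of 0.384 over the 200 probe sets, which share arrays and are no replicates. AT3G05730 ranked 2 in vte2, 1 in vte1 and 3 in WT, and CCL ranked 1, 13 and 1. At the other end, AT3G45730 had increases of only 1.44 in vte2 and 1.38 in vte1, against 3.89 in WT. Its signal was 243, 276 and 272 in vte2, 259, 140 and 121 in vte1 and 536, 500 and 447 in WT at day 3, against 54.9, 116 and 86.4, 96.3, 87.2 and 6.8, and 20.3, 4.4 and 15.9 at day 1. Both mutants lay below WT at day 3, and vte2 lay above WT at day 1. The other small increases in vte2 were those of AT3G50400 (1.64), AT4G27700 (1.69), AT4G28080 (1.72) and SFP2 (1.88), and in vte1 those of AT1G56220 (0.60), ATL8 (1.34), AT5G19120 (1.46) and AT4G37220 (1.51).

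**Figure D2:**
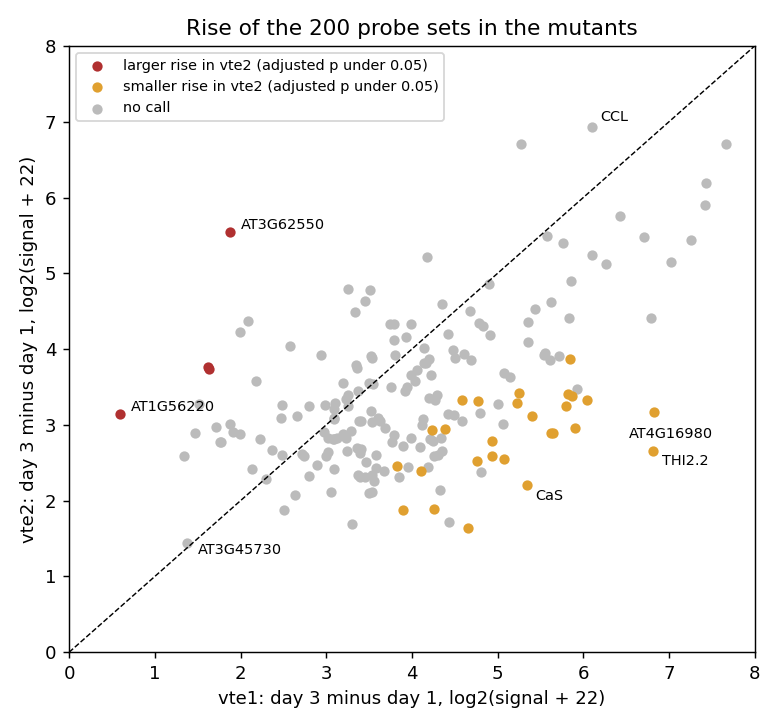
Increase of each of the 200 probe sets between day 1 and day 3 in vte2 (vertical axis) and in vte1 (horizontal axis), as differences of mean log2(signal + 22) over 3 arrays per group. The dashed line marks equal increases. The 27 probe sets called with a smaller increase in vte2 lie below it, among them THI2.2 and CaS, and the 4 called with a larger one, among them AT1G56220, lie above it.

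The increase itself was compared between the mutants with the interaction term of the same fit. It was smaller in vte2 than in vte1 for 146 of the 200 probe sets and larger for 54, with a median difference of −0.62, against −0.04 over all probe sets tested. Of these, 27 were called smaller (limma adjusted p under 0.05), where 3.84% of all tested were, and 4 were called larger, where 1.45% of all tested were. Of the 27, 18 (66.7%) were also called higher in vte2 than in vte1 at day 1, which is 58.1% of the 31 called there, and 6 were called lower in vte2 at day 3. Those counts share arrays with the increase. With replicate 3 left out of all groups, 59 were called smaller and 25 larger, whereas without replicate 1 or without replicate 2 none was called. The share of all probe sets called was not counted for these or the other alternative fits below, so such counts stand without a background. Single arrays moved the 27 to 16 without vte1 day 1 replicate 2, to 41 without vte1 day 1 replicate 3, to 16 and 17 without vte1 day 3 replicates 1 and 2 and to 17 without vte2 day 3 replicate 1. The 4 became 1 or 2 without replicate 1 or replicate 2 of any of the 4 mutant groups, and 7 without vte2 day 3 replicate 3. With 100 units added before the log the 4 became 8.

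At day 1 most of the set lay higher in vte2 than in vte1, and the genes called included CaS, AT4G16980, ECS1 and THI2.2. At that day 155 of the 200 probe sets lay higher in vte2 than in vte1 and 45 lower, with a median of 0.39 against 0.02 over all tested. The test called 31 higher, where 4.13% of all tested were called, and 1 lower, AT1G56220, where 1.09% were. The 3 vte2 arrays lay above the 3 vte1 arrays for 46 probe sets, where 10.5% of all tested did, and below them for 4, where 8.35% did. Without vte2 day 1 replicate 3 the count of higher calls was 15, without vte1 day 1 replicate 1 it was 17 and without vte1 day 1 replicate 2 it was 15. It was 49 without replicate 3, 7 without replicate 1 and 1 without replicate 2 in all groups. With the 6 arrays of this comparison fitted alone it was 5, with 0 called lower, and with 100 units added before the log it was 16.

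CaS, the calcium sensing receptor of the thylakoid membrane, showed the pattern of the day 1 difference. Its day 1 signal was 997, 1191 and 1494 in vte2, against 82.7, 127 and 367 in vte1, while WT had 846, 792 and 904. At day 3 it was 5149, 6064 and 5815 in vte2, against 8450, 6837 and 6914 in vte1, and 5758, 9878 and 11832 in WT. The vte1 arrays were the low ones at day 1 and did not overlap with vte2 or WT, and at day 3 vte2 lay below vte1 by less. The day 1 difference of vte2 from vte1 was 2.76 ± 0.35 (SE; limma adjusted p = 9.81e-05), the day 3 difference was −0.38 ± 0.35 (limma adjusted p = 0.694) and the increase was 3.13 smaller in vte2 (−3.13 ± 0.49, limma adjusted p = 0.00117).

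AT4G16980, which has no further name in the tables, behaved the same way on all arrays. Its signal at day 1 was 1026, 1147 and 1282 in vte2, against 127, 118 and 216 in vte1, with 1005, 998 and 624 in WT. At day 3 it was 14332, 10854 and 7387 in vte2, against 24337, 18756 and 15867 in vte1, with 19560, 23259 and 14194 in WT. The vte2 and vte1 arrays were apart at both days, in opposite directions. The difference was 2.77 ± 0.28 at day 1 (limma adjusted p = 1.25e-05), and its call was kept under each of the 17 alternatives tried for it, while the −0.88 ± 0.28 at day 3 was not called (limma adjusted p = 0.0925). The other day 1 calls singled out between the mutants were kept under fewer, 9 of 17 for AT5G16030 to 16 of 17 for CaS, AT5G48490 and AT5G38980. AT5G48490 (2.48), AT1G21500 (2.23), AT2G30930 (2.19), AT5G38980 (2.11) and AT5G16030 (1.99) were also among the 10 largest day 1 differences called, together with AT2G37130 (2.27), THI2.2 and ECS1.

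**Figure D3:**
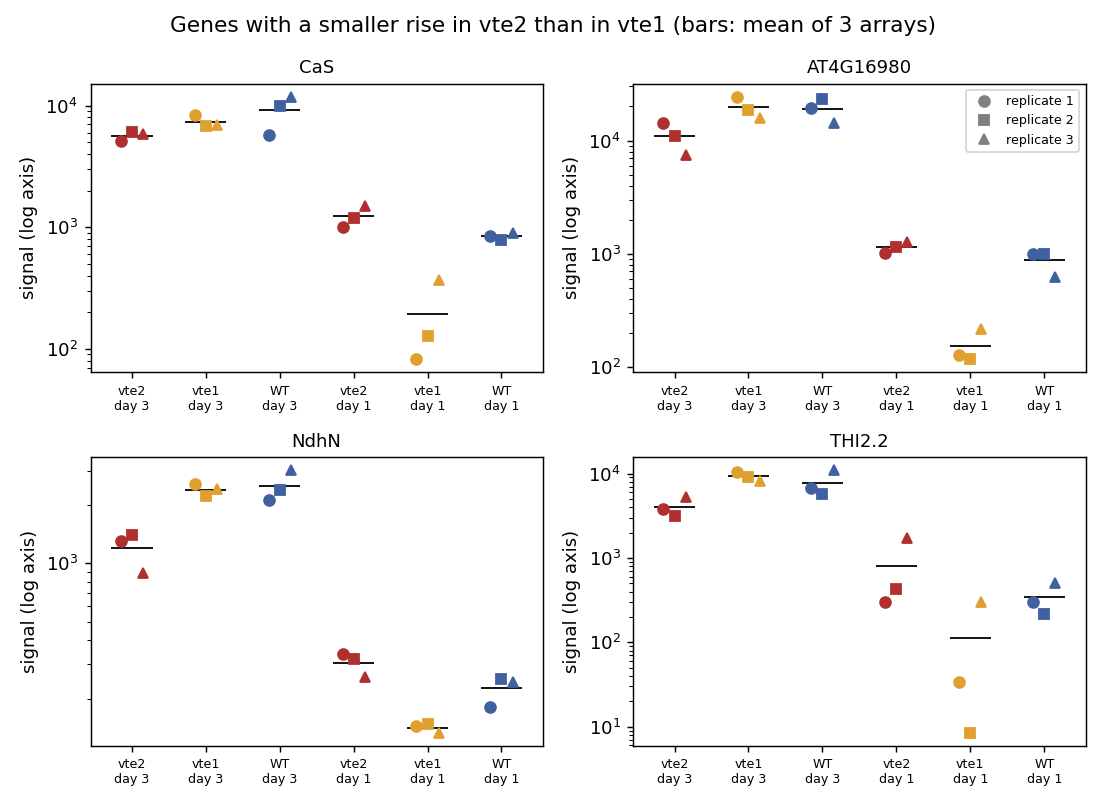
Signal of CaS, AT4G16980, NdhN and THI2.2 on each array (log axis), with vte2, vte1 and WT at day 3 on the left and at day 1 on the right. Symbols stand for replicates and bars for the mean of 3 arrays. In each panel the vte1 arrays at day 1 lie below the vte2 arrays, and THI2.2 has its brightest day 1 arrays in replicate 3.

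The named genes were put into 6 groups by their roles, after their values had been seen, to describe them. The 10 genes of plastid metabolism, photosynthetic electron flow and photorespiration were HPR, PRK, SBPASE, LrgB, NdhL, NdhN, NdhS, PIFI, TROL and CaS. All 10, like 199 of the 200, were called higher at day 3 in both mutants, with a median increase of 2.38 in vte2 and 4.34 in vte1. At day 1 all 10 lay above vte1 in vte2, 5 of them called, where 4.13% of all tested were, with a median of 0.98. At day 3 9 of the 10 lay below vte1 in vte2, 2 of them called, where 0.986% of all tested were, with a median of −0.54. The increase was called smaller in vte2 for 6 of the 10, with a median difference of −1.62, where 27 of all 200 and 3.84% of all tested were so called. As the group was formed with these values in view, its counts describe it only. AT1G80380, a member in the list of photosynthetic carbon metabolism given below, was not put into this group. Its differences of vte2 from vte1 were 0.37 ± 0.25 at day 1, 0.0006 ± 0.25 at day 3 and −0.37 ± 0.36 in the increase, none of them called.

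PRK and SBPASE, phosphoribulokinase and sedoheptulose-bisphosphatase, serve the regeneration of the carbon dioxide acceptor in the Calvin cycle. The day 1 signal of PRK was 2405, 2105 and 3476 in vte2, against 346, 608 and 1897 in vte1, and 1632, 1790 and 2916 in WT. Replicate 3 was the highest in all 3 genotypes, yet vte1 did not reach vte2. At day 3 PRK had 17238, 18898 and 10415 in vte2, against 27297, 17960 and 18102 in vte1, and 25918, 23426 and 30120 in WT, and vte2 overlapped with vte1. The day 1 difference was 1.78 ± 0.42 (limma adjusted p = 0.0154), and the increase differed by −2.24 ± 0.59 (limma adjusted p = 0.0319). SBPASE had a day 1 signal of 2362, 2175 and 3544 in vte2, against 736, 952 and 2770 in vte1, and 2148, 1780 and 3258 in WT. The vte1 array of replicate 3 lay within the vte2 range, and the difference of 1.06 ± 0.35 was not called (limma adjusted p = 0.0923).

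HPR is the peroxisomal hydroxypyruvate reductase of photorespiration. At day 3 it reached 15872, 16146 and 12354 in vte2, against 27351, 20846 and 21607 in vte1, with 26276, 28472 and 34464 in WT. The vte2 arrays lay below all arrays of the other genotypes. At day 1 it had 1246, 1247 and 1912 in vte2, against 788, 848 and 1256 in vte1, with 937, 1076 and 1281 in WT, and vte2 and vte1 overlapped slightly. Its increase was smaller in vte2 by 1.25 on the log2 scale (−1.25 ± 0.32, limma adjusted p = 0.0266), while neither day alone was called. LrgB, the plastid envelope carrier of the photorespiratory intermediates glycolate and glycerate, was apart at both days. Its signal was 2862, 2305 and 3002 in vte2 at day 3, against 4826, 4247 and 4784 in vte1. At day 1 it was 508, 492 and 500 in vte2, against 269, 295 and 191 in vte1. WT had 4300, 5171 and 5132 at day 3 and 481, 377 and 362 at day 1. The differences were −0.76 ± 0.20 at day 3 (limma adjusted p = 0.0358) and 0.95 ± 0.20 at day 1 (limma adjusted p = 0.0067). PRK and LrgB are also near neighbours on chromosome 1.

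NdhL, NdhN and NdhS are subunits of the chloroplast NADH dehydrogenase-like complex, which returns electrons from the stroma to the plastoquinone pool. NdhN had 1306, 1407 and 896 in vte2 at day 3, against 2565, 2222 and 2427 in vte1, with 2116, 2383 and 3021 in WT. At day 1 it had 340, 319 and 260 in vte2, against 144, 147 and 133 in vte1, with 182, 252 and 244 in WT. The arrays of vte2 and vte1 did not overlap on either day. The differences were −1.01 ± 0.22 at day 3 (limma adjusted p = 0.0117) and 1.00 ± 0.22 at day 1 (limma adjusted p = 0.00883). NdhL had an increase smaller by 1.45 on the log2 scale in vte2 (−1.45 ± 0.39, limma adjusted p = 0.0338) and NdhS a difference of −1.08 ± 0.42 that was not called (limma adjusted p = 0.158). PIFI, a stromal protein tied to the same electron route, went the same way in both mutants, with increases of 3.55 ± 0.31 in vte2 and 3.50 ± 0.31 in vte1 and a difference of 0.05 ± 0.43 (limma adjusted p = 0.974). TROL, the thylakoid rhodanese-like protein that anchors ferredoxin-NADP reductase, had a day 1 signal of 696, 352 and 1531 in vte2, against 112, 119 and 481 in vte1. Replicate 3 was high in both, and the difference of 1.82 ± 0.50 was called (limma adjusted p = 0.0391).

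Lists of related genes, members and others, held the following calls. Of 7 tested genes in a list of photosynthetic carbon metabolism, of which HPR, PRK, SBPASE and AT1G80380 belong to the 200, 6 were called higher and 1 lower at day 3 in vte2 and in vte1, with medians of 2.48 and 3.85. Of all probe sets tested, 21.7% were called higher and 18.5% lower at day 3 in vte2, and 30% and 23.4% in vte1, which is the background for every list here. At day 1 1 was called higher in vte2 than in vte1, where 4.13% of all were, and at day 3 none was. The increase was called smaller in vte2 for 3 of 7, where 3.84% of all were, with a median difference of −1.25. HPR and PRK are 2 of these 3 and were already counted in the group above, so the list is not separate from it. The 4 members are also among the 6 called higher at day 3. Of 25 other plastid and thylakoid genes, 2 of them members, 14 were called higher and 4 lower at day 3 in vte2, and 16 and 6 in vte1. Of these 25, the increase was called smaller in vte2 for 5, where 3.84% of all were, and larger for none, where 1.45% of all were. Of 14 genes found by words for chlorophyll and isoprenoid synthesis, 3 were called higher and 1 lower in vte2, and 10 and none in vte1. The 3 called higher in vte2 are near the share of all tested. The 1 member among them, PIFI, is there for the word chlorophyll in its name and is no enzyme of that pathway. The increase was called smaller in vte2 for 2 of those 14, where 3.84% of all were. Such calls also fell outside the plastid lists. In glucosinolates and defence 4 of 29 were called smaller and 3 larger, and in pectin and wall polysaccharide enzymes 4 of 41 and 0. Light and auxin signalling had 3 of 22 and 0, and expansins and related wall enzymes 2 of 20 and 1. For peroxidases and other oxidases it was 1 of 26 and 2. Transcription factors (39), cytoskeleton genes (21) and transport genes (19) each had 1 smaller and 0 larger.

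Among genes of sugar synthesis and transport, ATSPS4F, a sucrose-phosphate synthase, had the strongest increase. Its day 3 signal was 1275, 1388 and 502 in vte2, against 2191, 1863 and 1256 in vte1, with 1135, 1107 and 1471 in WT, while all its day 1 arrays lay between 3.5 and 30.6. The groups overlapped at day 3, and the difference of −0.83 ± 0.36 between the mutants was not called (limma adjusted p = 0.256). SWEET2 and SWEET17, sugar carriers of the vacuole membrane, had increases of 2.50 and 3.50 in vte2, and 3.47 and 3.75 in vte1. SFP2, of the sugar porter family, had 1.88 in vte2 and 2.50 in vte1. None of the 4 genes was called between the mutants at either day or in the increase.

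**Figure D4:**
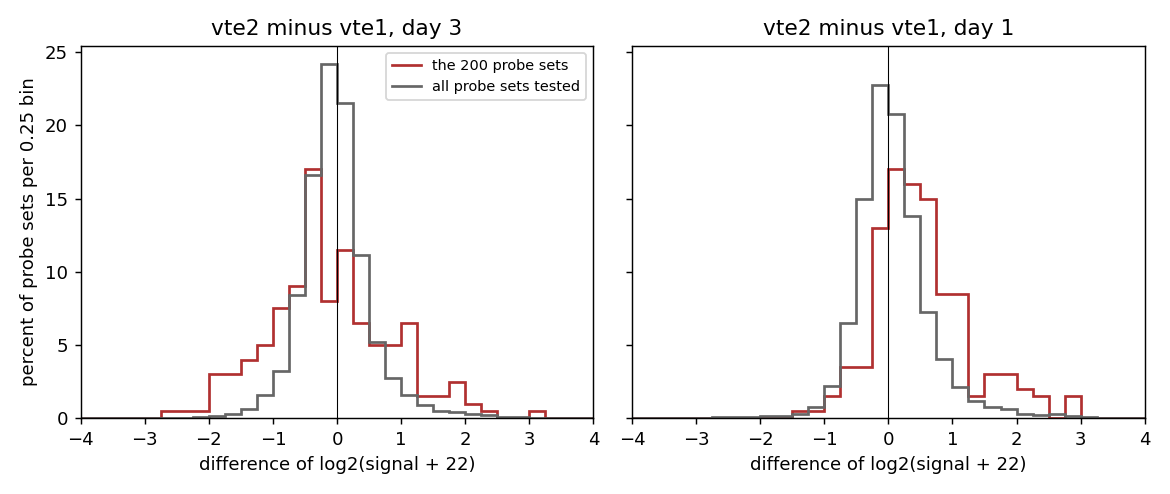
Distribution of the difference between vte2 and vte1 in mean log2(signal + 22) at day 3 (left) and day 1 (right), as the percent of probe sets per bin of 0.25, for the 200 probe sets and for all 15922 tested. At day 1 the 200 probe sets lie to the right, with a median of 0.39, and at day 3 they spread to both sides, with a median of −0.25.

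At day 3 members were called in both directions between the mutants, most of them genes with no name beyond the locus. Those with a name were GAT1_2.1, FDH and ZCF37, higher in vte2, and NdhN and LrgB, lower in vte2. Of the 200 probe sets 84 lay higher in vte2 than in vte1 and 116 lower, with a median of −0.25 against −0.05 over all tested. The test called 9 higher, where 2.53% of all tested were called, and 10 lower, where 0.986% were. The 3 vte2 arrays lay above the 3 vte1 arrays for 31, where 11.1% of all tested did, and below them for 56, where 13.8% did. These counts rest on few arrays. The 9 higher calls became 0 without vte1 day 3 replicate 1, without vte1 day 3 replicate 2 or without vte2 day 3 replicate 1, and 1 without vte2 day 3 replicate 2. The 10 lower calls became 3, 4, 4 and 6 in the same order. Without replicate 3 in all groups 44 were called higher and 38 lower, and without replicate 1 or replicate 2 none was. With the 6 arrays of this comparison fitted alone 20 were called higher and 23 lower, with 100 units added 18 and 29, and with 1 unit added 3 and 2.

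Genes called higher in vte2 at day 3 were AT3G62550 (3.14), GAT1_2.1 (2.21), AT1G21680 (2.10), AT2G15960 (1.90), AT3G15450 (1.87), FDH (1.80), AT3G10020 (1.70), ZCF37 (1.67) and AT1G56220 (1.28). GAT1_2.1, a glutamine amidotransferase, had a day 3 signal of 1335, 1726 and 1155 in vte2, against 193, 217 and 522 in vte1, while WT had 2763, 2380 and 731. The vte1 arrays were the lowest and did not overlap with either genotype, and the WT array of replicate 3 stood well below the other 2. The difference of vte2 from vte1 was 2.21 ± 0.58 (limma adjusted p = 0.0381). FDH, the mitochondrial formate dehydrogenase, had 4174, 3807 and 5038 in vte2, against 1122, 1108 and 1480 in vte1, with 1510, 1498 and 1346 in WT. Here vte2 was the genotype that stood apart, and the difference was 1.80 ± 0.41 (limma adjusted p = 0.0171).

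MCCA, a subunit of the methylcrotonyl-CoA carboxylase of leucine breakdown, gave 2068, 2537 and 1040 in vte2 at day 3, against 894, 692 and 927 in vte1, and 6764, 4664 and 1450 in WT. The groups of vte2 and vte1 did not overlap, but the difference of 1.06 ± 0.45 was not called (limma adjusted p = 0.236). THIC, which makes the pyrimidine part of thiamin in the plastid, had 2768, 2590 and 608 in vte2, against 1467, 1384 and 1649 in vte1, so that its replicate 3 went against the other 2. Of these 4 genes 2 were thus called higher in vte2 at day 3, where 2.53% of all tested were, and none lower, where 0.986% were. This group too was formed with its values in view, so these counts describe it only.

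Replicate 3 of WT had the lowest of the 3 WT day 3 signals in 9 of the 9 genes called higher in vte2 at that day, against 73 of all 200 probe sets. In the same 9 genes replicate 3 was the lowest vte2 array in 7 and the highest vte1 array in 7, against 99 and 103 of all 200. For the 10 genes called lower, replicate 3 was the highest WT day 3 array in 9, against 102 of all 200. What moved replicate 3 in these genes was not tested.

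AT1G56220 was the 1 member with no called increase in vte1. Its day 3 signal was 4338, 6304 and 4203 in vte2, against 1906, 1851 and 2223 in vte1, with 9683, 8085 and 4033 in WT. At day 1 it was 444, 391 and 866 in vte2, against 1040, 1729 and 1234 in vte1, with 402, 634 and 775 in WT. The vte1 arrays were the highest of the 3 genotypes at day 1 and the lowest at day 3, without overlap. The change between the days was 3.14 ± 0.34 in vte2 (limma adjusted p = 7.97e-07) and 0.60 ± 0.34 in vte1 (limma adjusted p = 0.142), and the difference between these changes was 2.54 ± 0.47 (limma adjusted p = 0.00414). It was the only probe set among the 200 called lower in vte2 than in vte1 at day 1 (−1.26 ± 0.34, limma adjusted p = 0.034) and was called higher at day 3 (1.28 ± 0.34, limma adjusted p = 0.0388).

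Among the members with a larger increase in vte2, AT3G62550 had the largest difference, 3.66 ± 0.97 (limma adjusted p = 0.0342). Its day 3 signal was 2966, 6745 and 494 in vte2, against 132, 143 and 582 in vte1, with 3372, 2224 and 1265 in WT. Replicate 3 was the lowest array in vte2 and the highest in vte1, so that these 2 groups overlapped, and without it the other arrays lay far apart. AT3G10020 and AT5G59080 had increases larger in vte2 by 2.14 ± 0.60 (limma adjusted p = 0.0419) and 2.10 ± 0.60 (limma adjusted p = 0.0458), calls kept under 13 and 11 of 23 alternatives. ATL8, a RING-H2 protein of the ATL family, had 463, 486 and 253 in vte2 at day 3, against 128, 158 and 174 in vte1, with 861, 749 and 211 in WT, and a difference between the mutants of 1.23 ± 0.43 that was not called (limma adjusted p = 0.137).

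**Figure D5:**
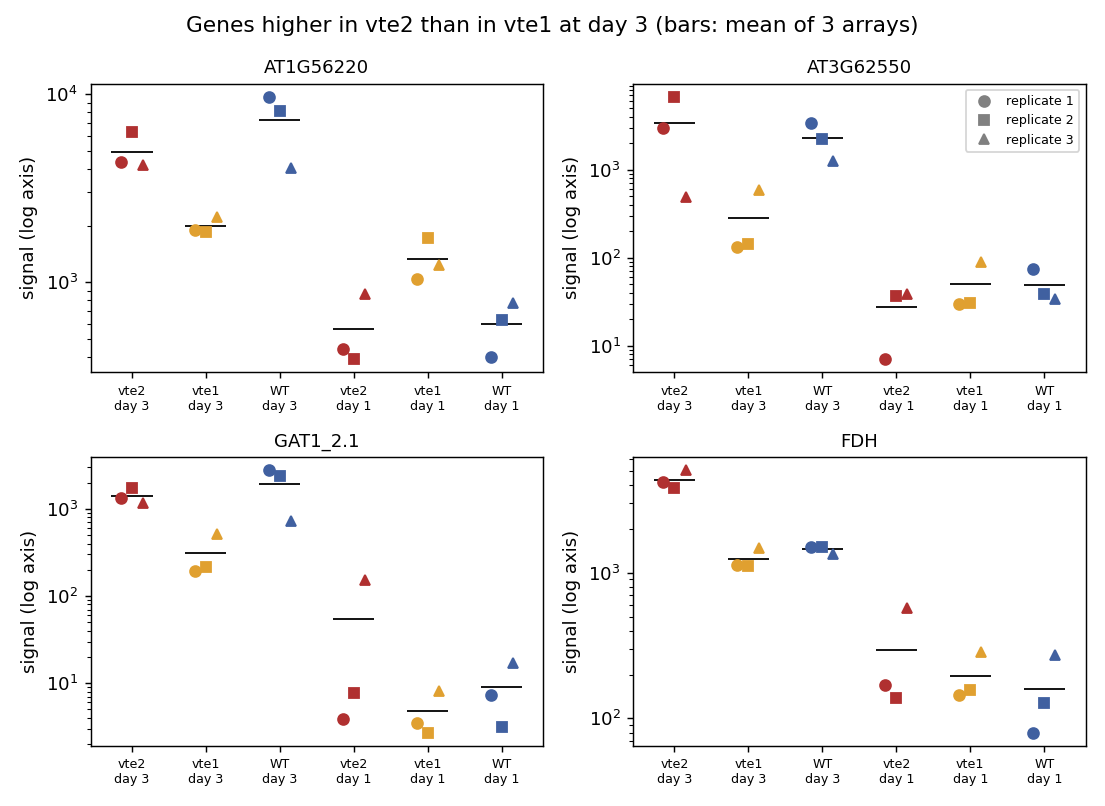
Signal of AT1G56220, AT3G62550, GAT1_2.1 and FDH on each array (log axis), with vte2, vte1 and WT at day 3 on the left and at day 1 on the right. Symbols stand for replicates and bars for the mean of 3 arrays. The mean at day 3 is lower in vte1 than in vte2 in each panel, and replicate 3 is the lowest WT array at day 3.

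The genes called lower in vte2 than in vte1 at day 3 were AT3G50400 (−2.62), AT2G22510 (−2.40), AT1G66100 (−2.01), AT4G38080 (−1.96), AT2G15020 (−1.85), AT4G17215 (−1.73), AT1G23205 (−1.66), AT4G28780 (−1.60), NdhN and LrgB. The first 8 have no name beyond the locus. The day 3 calls between the mutants were kept under 6 (ZCF37) of 16 or 6 (AT4G38080) of 17 up to 14 of 17 alternatives, with 8 of 16 for GAT1_2.1, 8 of 17 for AT1G56220 and 9 of 17 for LrgB. AT2G22510 had 374, 382 and 180 in vte2 at day 3, against 2196, 2197 and 946 in vte1, and 331, 321 and 877 in WT. The vte1 arrays were the high ones, and the difference was −2.40 ± 0.42 (limma adjusted p = 0.00261). AT1G66100 had 519, 624 and 506 in vte2, against 2514, 2108 and 2203 in vte1, and 1102, 797 and 1658 in WT, with WT between the mutants. AT3G50400 had 46.4, 136 and 242 in vte2, against 833, 986 and 755 in vte1, and 128, 158 and 832 in WT. Its WT array of replicate 3 lay among the vte1 arrays while the other 2 lay near vte2.

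Of 7 genes of defence and secondary metabolism, THI2.2 and GSTU18 were called between the mutants, both higher in vte2 at day 1. At that day 31 of the 200 and 4.13% of all tested were called higher. As this group was formed with its values in view, the count describes it only. THI2.2, thionin 2.2, an antimicrobial peptide, had a day 1 signal of 303, 433 and 1700 in vte2, against 34.2, 8.5 and 300 in vte1, with 303, 218 and 504 in WT. Replicate 3 was the highest array of every genotype, and the highest vte1 array came within a few units of the lowest vte2 array. At day 3 it had 3842, 3150 and 5210 in vte2, against 10379, 9086 and 8256 in vte1, with 6817, 5723 and 10873 in WT. The day 1 difference was 2.95 ± 0.64 (limma adjusted p = 0.00883), and it was no longer called without vte1 day 1 replicate 1, vte1 day 1 replicate 2 or vte2 day 1 replicate 3. The increase differed by −4.15 ± 0.90 (limma adjusted p = 0.0107), the largest difference of this kind in the set. GSTU18, a tau-class glutathione transferase, had a day 1 difference of 1.06 ± 0.30 (limma adjusted p = 0.0455).

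OSM34 (osmotin 34), AT3G13610 (F6'H1, feruloyl-CoA 6'-hydroxylase of coumarin synthesis), BGLU46 (a beta-glucosidase), CYP71B26 (a cytochrome P450) and GSTL3 (a lambda-class glutathione transferase) had increases of 2.88 to 4.35 in vte2 and of 3.20 to 5.36 in vte1, all of them called. For BGLU46 the day 3 signal was 696, 982 and 1490 in vte2, against 498, 591 and 946 in vte1, with 831, 891 and 1047 in WT, and all groups overlapped. Like 199 of the 200 in each mutant, the named genes grouped under wall, cuticle and growth were called higher at day 3 in both mutants. EXLA1 (expansin-like A1) had increases of 3.39 in vte2 and 3.25 in vte1, AT5G66390 (peroxidase PRX72) 4.31 and 4.83, and LPR2 (Low Phosphate Root2, a multicopper oxidase) 3.86 and 4.20. AT5G61590 (DEWAX, a repressor of wax synthesis) had 2640, 4019 and 1115 in vte2 at day 3, against 691, 1009 and 1451 in vte1, and 4344, 4508 and 2012 in WT, and its difference of 1.17 ± 0.39 was not called (limma adjusted p = 0.115). IQD24, a calmodulin-binding IQ-domain protein, and KICP-02 had increases of 2.87 and 2.41 in vte2, and 3.79 and 3.09 in vte1. None of these 11 genes was called between the mutants at a single day or in the increase.

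Other genes of these families in lists by name were called in both directions, where 21.7% of all tested were called higher and 18.5% lower at day 3 in vte2, and 30% and 23.4% in vte1. Of 29 tested genes of glucosinolates and defence, THI2.2 being the 1 member, 5 were called higher and 5 lower at day 3 in vte2, and 10 and 8 in vte1, which is near those shares. Of 26 peroxidases and other oxidases, 2 of them members, 10 were higher and 3 lower in vte2, and 12 and 5 in vte1. Of 20 expansins and related wall enzymes, 8 were higher and 3 lower in vte2, and 9 and 4 in vte1. Of 19 genes of water and solute transport, 2 of them members, 7 were higher and 1 lower in vte2, and 7 and 3 in vte1. Both genes of the cuticle and lipid list were called higher in each mutant, DEWAX being the 1 member.

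ECS1 differed from the plastid genes in that both mutants ended above WT. Its day 3 signal was 14484, 17627 and 15179 in vte2, against 10570, 7720 and 8534 in vte1, and 4686, 6613 and 7302 in WT. At day 1 it was 157, 202 and 434 in vte2, against 42.9, 4.0 and 60.4 in vte1, and 68.0, 108 and 92.1 in WT. The 3 genotypes did not overlap at either day. The day 1 difference between the mutants was 2.35 ± 0.36 (limma adjusted p = 0.00063), and the day 3 difference of 0.82 ± 0.36 was not called (limma adjusted p = 0.265). AT2G25510 was ordered in the same way at day 3, with 6643, 6854 and 6671 in vte2, 3430, 3338 and 2008 in vte1 and 1727, 1751 and 1692 in WT, and no overlap.

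Differences from WT are a description only, because the WT arrays that chose the members stand in them. At day 3 the median difference from WT was −0.35 in vte2 and −0.18 in vte1, and at day 1 it was 0.27 in vte2 and −0.12 in vte1. In vte2 10 members were called lower than WT at day 3, where 0.59% of all tested were, and none higher, where 1.75% were. With any 1 of these 6 arrays left out, 2 to 4 were called lower. A replicate block in the fit gave 4 called higher. In vte1 3 were called lower at day 3, where 0.232% of all were, and none higher, where 0.0691% were. Without WT day 3 replicate 3 the counts were 20 lower and 14 higher, without vte1 day 3 replicate 3 they were 12 and 1, and without any other of these arrays 1 was lower. At day 1 vte2 had none called higher, where 0.0879% were, and none lower, where 0.00628% were. At the same day vte1 had 9 called lower, where 1.89% were, and none higher, where 0.201% were. The 9 became 24 without vte1 day 1 replicate 3, and 4 or 5 without any other of these arrays. The replicate block gave 14 called lower.

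The lower calls in vte1 at day 1 included AT4G16980 (−2.36), CaS (−2.25), AT2G34620 (−1.94), AT5G38980 (−1.93), AT3G48420 (−1.55) and AT1G21500 (−1.54). The vte1 arrays lay above WT for AT1G21680 (1.36), AT5G59080 (1.28), AT1G56220 (1.13), AT3G28270 (1.11), AT1G78450 (0.81) and AT1G52050 (0.69). At day 3 vte1 lay below WT without overlap for AT3G62950 (−3.13), AT3G62550 (−3.11), GAT1_2.1 (−2.50), AT5G62360 (−2.23), AT4G37220 (−2.20) and AT1G21680 (−2.20), and above it for AT2G22510 (1.82), AT4G17215 (1.41), AT2G15020 (1.40), AT4G38080 (1.35), AT1G23205 (1.15) and AT1G66100 (0.99). AT3G62950 was low in both mutants. At day 3 it had 230, 337 and 161 in vte2, then 103, 78.6 and 156 in vte1, where WT had 1516, 1480 and 633.

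In vte2 at day 3 AT5G22390 (−1.35), AT2G34620 (−1.31), AT3G48420 (−1.25), AT2G10940 (−1.22) and AT3G50560 (−1.20) followed AT3G62950 (−2.17) below WT. Above WT at that day lay AT2G25510 (1.95), FDH (1.56), ECS1 (1.36), AT2G29340 (1.07), AT5G44580 (1.06) and AT5G19240 (0.77). At day 1 vte2 lay above WT without overlap for AT3G45730 (1.59), ECS1 (1.26), AT4G10060 (1.26), AT1G22630 (1.23), AT5G37690 (1.15) and AT5G48490 (1.09), and below it for AT2G05540 (−0.56).

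A few members lie side by side in the genome. In the gene order of RefSeq assembly TAIR10.1, 21 of the members' loci fell into 9 runs in which neighbours were at most 5 protein-coding genes apart. The longest were AT2G29290, AT2G29310, AT2G29340 and AT2G29360 on chromosome 2, and AT1G52050, AT1G52060 and AT1G52070 on chromosome 1. In the chromosome 2 run the increase in vte2 was 5.48, 3.04, 3.79 and 2.34, and in vte1 6.71, 3.53, 3.35 and 3.54. Only AT2G29340 of these 4 lay higher in vte2 than in vte1 at day 3 without overlap, with 2095, 2141 and 4332 against 918, 862 and 970, and that difference of 1.53 ± 0.48 was not called (limma adjusted p = 0.0861). Chromosome 1 held 60 of the 200 members, against 25.7% of all probe sets with 1 gene. Each neighbour has its own probe set, and none of the 200 is of the kind the manufacturer marks as matching several transcripts. Whether the probes of a neighbour also bind transcripts of another was not tested.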

How the data were processed

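The deposited values are linear signal intensities made with MAS5, per the submitters' processing notes, which name neither a version nor a scaling target. Detection calls were not used here. The 64 control probe sets were left out, 22 units, equal to the 20th percentile of the signals, were added, and log2 was taken. Probe sets above the 30th percentile of mean log2 signal over all arrays were tested: 15922 of 22746. Of the 22746, 13513 had 1 gene in GEO's platform annotation, 503 several and 8730 none. Names came from RefSeq TAIR10.1, which 13436 matched and 77 did not.

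All 18 arrays entered 1 model with 6 group means, fitted with limma 3.58.1 (eBayes with trend) in R 4.3.3. P-values are two-sided, adjusted by Benjamini-Hochberg over all probe sets tested within a comparison and called under 0.05. The script was tested on simulated data with independent noise on each array. That test did not cover the shared deviations of same-numbered arrays given below. With 3 arrays a group, the smallest p of an exact permutation test is 0.1. Figures were drawn with Python 3.11.15 and matplotlib 3.10.9.

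The members, gene lists, marker lists and the rule for named genes were chosen with earlier results of these data known. Named are the 10 largest WT increases, up to 3 members per gene list, the 10 largest called changes per direction between the mutants, the 6 largest non-overlapping differences from WT per direction, the 5 smallest increases per mutant and the border of the set. Other members with a name were added and grouped after their values were seen.

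Replicate numbers come from the titles. Deviations of same-numbered arrays from their group means correlated over 0.1 in each of 3 pairs between all groups of day 1 (0.254 to 0.592). They did so between vte2 and WT at day 3 as well (0.151 to 0.370), but not in each pair between other groups. For replicate 3 the same number gave the highest correlation in 15 of 15 pairs of groups. For replicates 1 and 2 it did so in only 7 and 8 of 15, so their numbers were not shown to pair the arrays. Alternatives were another scaling, other added values, a stricter filter, the replicate block, the arrays of a comparison alone, members chosen in other ways and leaving out arrays.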

Additional observations from a re-analysis of the deposited data

Results flagged for a closer look

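The change between day 1 and day 3 differed between vte2 and vte1, by the interaction term of the limma fit, for the 14 probe sets named by the rule for this comparison. Positive differences mean a larger increase in vte2. These were 3.66 for AT3G62550, 2.54 for AT1G56220, 2.14 for AT3G10020 and 2.10 for AT5G59080. Negative differences were −4.15 for THI2.2, −3.66 for AT4G16980, −3.13 for CaS, −3.01 for AT3G50400, −2.95 for AT2G34620, −2.76 for AT5G48490, −2.74 for AT5G16030, −2.71 for AT1G21500, −2.55 for AT4G38690 and −2.53 for AT2G10940. Their adjusted p-values ran from 4.24e-05 for AT4G16980 to 0.0458 for AT5G59080. Groups of 3 arrays were not searched for single outlying arrays.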

How the results depend on the processing

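The increase in each mutant was called for 192 to 200 members in vte2 and 195 to 199 in vte1 when arrays were left out, and for 131 of the 132 members left in each mutant with a filter at the 50th percentile, which tests fewer probe sets. Neither a median of the 200 nor a named call turned its direction under an alternative run. Counts between groups moved more, and the cause was not tested. With quantile normalization 8 members were called lower in vte1 than in WT at day 3, and 2 higher and 6 lower in vte2; with median centring 10 were lower in vte1 and 2 higher in vte2. Median centring moved the median of all tested genes between the days by over 0.1, to −0.19 in vte2 and −0.25 in vte1, with member medians of 2.91 and 3.51. With 1 signal unit added, 3 were higher and 2 lower in vte2 than in vte1 at day 3, 1 was higher in vte1 than in WT at day 1, and at day 3 1 was lower in vte1 and 5 in vte2. With 100 units added, 16 were higher in vte2 than in vte1 at day 1, 18 higher and 29 lower at day 3, and 8 had a larger increase in vte2; against WT 5 were lower in vte1 at day 1, and at day 3 1 was higher and 15 lower in vte1 and 3 higher in vte2. The stricter filter left 3 lower in vte2 than in vte1 at day 3. With the replicate block 18 were lower in vte2 than in vte1 at day 3, where same-numbered arrays correlated at 0.033 to 0.127. Against WT 14 were lower in vte1 at day 1, 6 lower in vte1 at day 3 and 4 higher in vte2 at day 3. The block moved no other count by over 1.5 times. With the arrays of a comparison alone, vte2 against vte1 had 5 higher and 0 lower at day 1 and 20 higher and 23 lower at day 3; against WT 1 was lower in vte1 at day 1, and 3 were higher and 6 lower in vte2 at day 3. With members chosen after adding 100 units, 16 were lower in vte1 than in WT at day 1.

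Leaving out 1 array gave 15 to 41 higher and 0 to 1 lower calls in vte2 against vte1 at day 1, 0 to 11 and 3 to 12 at day 3, and 1 to 7 larger and 16 to 41 smaller increases in vte2. Set against WT, vte2 had 0 calls at day 1 and 0 higher and 2 to 4 lower at day 3. For vte1 the same contrast gave 0 to 2 higher and 4 to 24 lower at day 1, then 0 to 14 higher and 1 to 20 lower at day 3. Without replicate 3 in all groups, which leaves 2 arrays a group, the counts in the same order were 49 and 6, 44 and 38, and 25 and 59, and against WT 3 and 0 at day 1 and 5 and 26 at day 3 for vte2. For vte1 they were 5 and 42 at day 1, then 27 and 43 at day 3. Without replicate 1 or 2 in all groups, 7 and 1 were higher in vte2 than in vte1 at day 1 and 0 lower, and 0 were called at day 3, in the increase or against WT. Signals under the added 22 units carry little weight here, which limits statements on dim genes at day 1.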
